A study of Mus musculus with 3 samples.

Results

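A set of 10 genes of the killing machinery of lymphocytes were followed through single cell and single nucleus RNA sequencing of mouse lung. They were chosen by name, with earlier results of these data known. The set holds the granule genes Gzma, Gzmb, Prf1 and Nkg7, the receptor genes Ncr1, Klrb1c, Klre1, Klra4 and Klra8, and the transcription factor gene Eomes. All 10 were among the 21507 genes present in both deposited count tables. The study set 1 library of dissociated lung cells beside 2 libraries of isolated lung nuclei, nuclei replicate 1 and nuclei replicate 2, all from wild type C57Bl/6J mice. The cells came from fresh lung, freed by collagenase and DNAse with a GentleMacs dissociator and cleaned on an Optiprep gradient. The nuclei came from lung of adult mice, snap frozen and later lysed in Nuclei EZ buffer, dissociated in the same device and filtered. The age of the mice behind the cells and the number of animals behind any library are not stated, and no group carried a treatment or an engineered allele. Fresh or frozen tissue and cells or nuclei therefore differed together and cannot be told apart. Each library was read with the 10x Chromium assay, in which every captured transcript carries a unique molecular identifier (UMI), so a count is a count of molecules per gene and barcode.

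Natural killer (NK) cells and cytotoxic T cells kill by releasing granules onto a target cell. Perforin, the product of Prf1, opens pores, and the granzymes, serine proteases made from Gzma and Gzmb, enter and trigger death, while Nkg7 encodes a membrane protein of these granules. NK cells choose targets through surface receptors, of which NKp46 (Ncr1), NK1.1 (Klrb1c), Ly49D (Klra4) and Ly49H (Klra8, which binds a mouse cytomegalovirus protein) activate, and Klre1 encodes a lectin-like receptor that pairs with other receptors of its family. Eomes is a T-box factor needed for NK cell maturation and for memory CD8 T cells. Type 2 innate lymphoid cells (ILC2), which secrete type 2 cytokines, are lymphoid neighbours without this machinery.

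Positions are those of GENCODE M21 on mm10. The lectin-like and Ly49 members lay on chromosome 6, Klrb1c at chr6:128778485-128789215, Klre1 at chr6:129577905-129585827, Klra4 at chr6:130043731-130067271 and Klra8 at chr6:130115226-130129898. Nkg7 (chr7:43437073-43438249) and Ncr1 (chr7:4337724-4345164) lay on chromosome 7. Gzma was at chr13:113093825-113100981, Gzmb at chr14:56258838-56262260, Prf1 at chr10:61297833-61304680 and Eomes at chr9:118478212-118486132. Every member is annotated as protein coding. Of the 50-base words in the last 500 bases of the transcripts, 17.8% were shared with other genes for Klrb1c, 13.1% for Klra8 and 4.66% for Klra4, and 0% for the other 7, so counts of these 3 are uncertain where reads of relatives could be split. Klrb1c also overlaps Gm44511 on its own strand, and Eomes overlaps Gm33460 on the opposite strand, while the handling of strand is not given in the sources used here.

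The 250 bases before the RefSeq start are shown for Gzma, Gzmb and Ncr1, since they hold the letters of a motif that most members shared (RefSeq, GRCm38.p6, printed 5′ to 3′ along the gene's strand). Capitals mark TGTGGT or its reverse complement ACCACA, the core letters read by RUNX factors.
Gzma, chr13:113100982-113101231, minus strand: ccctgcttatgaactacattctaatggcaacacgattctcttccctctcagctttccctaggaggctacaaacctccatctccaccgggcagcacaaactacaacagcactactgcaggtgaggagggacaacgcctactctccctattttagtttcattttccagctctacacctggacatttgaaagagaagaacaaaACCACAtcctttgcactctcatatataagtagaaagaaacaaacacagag
Gzmb, chr14:56262335-56262584, minus strand: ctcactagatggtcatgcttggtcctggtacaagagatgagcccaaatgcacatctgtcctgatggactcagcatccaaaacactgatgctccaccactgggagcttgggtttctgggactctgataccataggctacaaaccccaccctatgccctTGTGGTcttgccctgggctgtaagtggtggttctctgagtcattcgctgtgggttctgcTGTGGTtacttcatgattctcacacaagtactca
Ncr1, chr7:4337465-4337714, plus strand: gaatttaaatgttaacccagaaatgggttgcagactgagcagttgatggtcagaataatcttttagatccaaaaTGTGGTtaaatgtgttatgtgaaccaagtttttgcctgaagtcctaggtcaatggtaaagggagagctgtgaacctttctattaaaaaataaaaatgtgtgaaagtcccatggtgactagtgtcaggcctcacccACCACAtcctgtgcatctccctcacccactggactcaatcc
These letters, searched on both strands, stood in the windows of 7 of the 10 members (70%), all but Klra4, Klra8 and Eomes, and in 3832 of 27025 windows of the same length over all genes (14.2%). The T-box letters GGTGTGA, or TCACACC, stood in 1 member's window, that of Nkg7, and in 3.31% of all windows. The windows of Klrb1c and Klre1 lay wholly inside their GENCODE gene spans, and those of Nkg7 and Prf1 lay partly inside theirs. Ncr1, Klre1 and Klra8 had 2 RefSeq starts each, of which the first listed was used. A letter match is a description of the window and not a binding site.

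The windows of the neighbours Klra4 and Klra8 are shown because these were the 2 Ly49 members measured. Capitals mark bases that differ between them or face a gap.
Klra4, chr6:130067272-130067521, minus strand: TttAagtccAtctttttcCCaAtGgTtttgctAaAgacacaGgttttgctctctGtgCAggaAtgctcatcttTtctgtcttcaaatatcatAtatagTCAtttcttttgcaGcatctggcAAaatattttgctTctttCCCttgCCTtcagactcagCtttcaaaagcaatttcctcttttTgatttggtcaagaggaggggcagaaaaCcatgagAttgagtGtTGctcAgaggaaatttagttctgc
Klra8, chr6:130129899-130130148, minus strand: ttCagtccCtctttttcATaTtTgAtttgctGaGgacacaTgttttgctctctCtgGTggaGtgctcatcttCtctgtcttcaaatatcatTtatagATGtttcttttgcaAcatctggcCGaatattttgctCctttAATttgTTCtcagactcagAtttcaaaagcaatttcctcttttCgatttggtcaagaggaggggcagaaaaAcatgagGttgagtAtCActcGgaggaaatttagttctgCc
In 251 aligned columns 212 were identical, 37 were mismatched and 2 held a gap.

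The cell library held 11934 barcodes and 35962788 counts. Nuclei replicates 1 and 2 held 6849 and 9806 barcodes and 28062109 and 27148272 counts. The median barcode had 2864 UMIs in cells and 4152 and 2521 UMIs in nuclei. Pairs of libraries shared 21 to 24 barcodes, and none of these was NK-like in both libraries. Levels are given as CPM, a gene's counts scaled to the same total of counts in every library or class. Xist stood at 285 CPM and Uty at 1.03 CPM in cells. Nuclei replicates 1 and 2 had 1022 and 9.62 CPM of Xist, made from the inactive X, and 0.938 and 269 CPM of Uty, a Y-linked gene. Replicate 1 thus had the female pattern, as the cells did, and replicate 2 the male one, so the nuclei came from different mice. Sex, animal and replicate number cannot be told apart in any difference between the nucleus libraries. Classes were rebuilt by clustering without the 10 members and named from markers that excluded them. The NK-like class held 120 cells and 51 and 35 nuclei, the T-like class 539 cells and 221 and 303 nuclei, and the ILC2-like class 195 cells and 39 and 18 nuclei. A class of 85 proliferating lymphoid cells, with NK and T markers, had no counterpart in nuclei. All other named classes together held 10872 cells and 6430 and 9220 nuclei, and served as background. All 14 NK markers were present in NK-like cells, at a summed 4068 CPM, against 13 and 10 of 14 in NK-like nuclei, at 3847 and 3424 CPM. Cma1 was at 0 in NK-like nuclei of both libraries, and Klri2, Klrg1 and Serpinb9b were at 0 in those of replicate 2. The 17 T markers summed to 2525 CPM in NK-like cells and to 1417 and 1155 CPM in NK-like nuclei, and their part in the results was not tested.

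In NK-like barcodes the granule genes were many times higher in cells than in nuclei, whereas most receptor genes were not. Gzma, the most abundant member, stood at 3086 CPM in NK-like cells (95% Poisson interval 2897 to 3285, 990 counts), against 127 and 99.5 CPM in NK-like nuclei (17 and 5 counts). The cells lay above both nucleus libraries, and over the 2 nucleus libraries together the ratio was 25.8 (counting interval 16.9 to 41.3). With 1 cell library, and under 50 NK-like nuclei in replicate 2, no test was made within this class, and all intervals cover counting error only.

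Gzmb, the second granzyme measured, had 102 counts and 318 CPM in NK-like cells, against 1 count (7.5 CPM) and 0 counts in NK-like nuclei. Prf1, the pore former, had 150 counts and 468 CPM in cells, against 8 counts (60 CPM) and 0 counts in nuclei. Nkg7 had 280 counts and 873 CPM in cells, against 0 counts and 1 count (19.9 CPM) in nuclei. All of these granule genes were therefore higher in the cells than in either nucleus library, where 0 counts allow up to 22.5 CPM in replicate 1 and 59.7 CPM in replicate 2 (3 counts). Over both nucleus libraries the ratios were 58.4 for Gzmb (10.2 to 2328), 10.7 for Prf1 (5.31 to 25.3) and 160 for Nkg7 (28.5 to 6352).

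The receptor genes differed less between preparations, with ratios from 0.615 to 1.87 over both nucleus libraries, against 10.7 to 160 for the granule genes. Ncr1 had 271 CPM in NK-like cells (217 to 335), against 345 and 338 CPM in nuclei (253 to 460 and 197 to 542), with overlapping intervals and a ratio of 0.790 (0.565 to 1.11). Klrb1c had 181 CPM in cells, against 315 and 239 CPM in nuclei, with a ratio of 0.615 (0.417 to 0.908) over both libraries and 0.757 (0.402 to 1.55) against replicate 2 alone. NK1.1, its product, is the surface marker by which NK cells of this strain are usually recognised. Klre1 had 306 CPM in cells against 142 and 219 CPM in nuclei, with a ratio of 1.87 (1.23 to 2.92) over both libraries and 1.40 (0.747 to 2.89) against replicate 2 alone. Klra8 had 196 CPM in cells and 187 and 159 CPM in nuclei, a ratio of 1.09 (0.706 to 1.72). Klra4 split the nucleus libraries, with 468 CPM in cells against 750 and 279 CPM in nuclei, so that the cells lay below replicate 1 (ratio 0.624, 0.481 to 0.811) and above replicate 2 (1.68, 0.969 to 3.14). These receptor levels moved with the clustering. At resolution 2, where the NK-like class held 230 cells and 38 and 22 nuclei, Ncr1 was at 153 CPM in cells against 429 and 507 CPM in nuclei, Klrb1c at 109 against 370 and 317 CPM and Klra8 at 112 against 244 and 253 CPM. Klre1 was then at 216 CPM in cells, between 146 and 253 CPM in nuclei. The granule genes kept their direction, as for Gzma at 2115 CPM in cells against 136 and 158 CPM in nuclei.

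Eomes, alone in its role, sat between these groups. It had 39 counts and 122 CPM in NK-like cells, against 3 and 2 counts (22.5 and 39.8 CPM) in NK-like nuclei, and a ratio of 4.46 (1.76 to 14.5) over both libraries. Against replicate 2 alone the interval was 0.791 to 26.1. Summed over all 10 members, NK-like cells had 6288 CPM and NK-like nuclei 1957 and 1394 CPM. At clustering resolution 2 these levels lay closer, at 4194 CPM in cells against 2349 and 1932 CPM in nuclei. Gzma made up 49.1% of the members' counts in NK-like cells and 6.51% and 7.14% in NK-like nuclei, where Klra4 (38.3%) led in replicate 1 and Ncr1 (24.3%) in replicate 2.

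**Figure D1:**
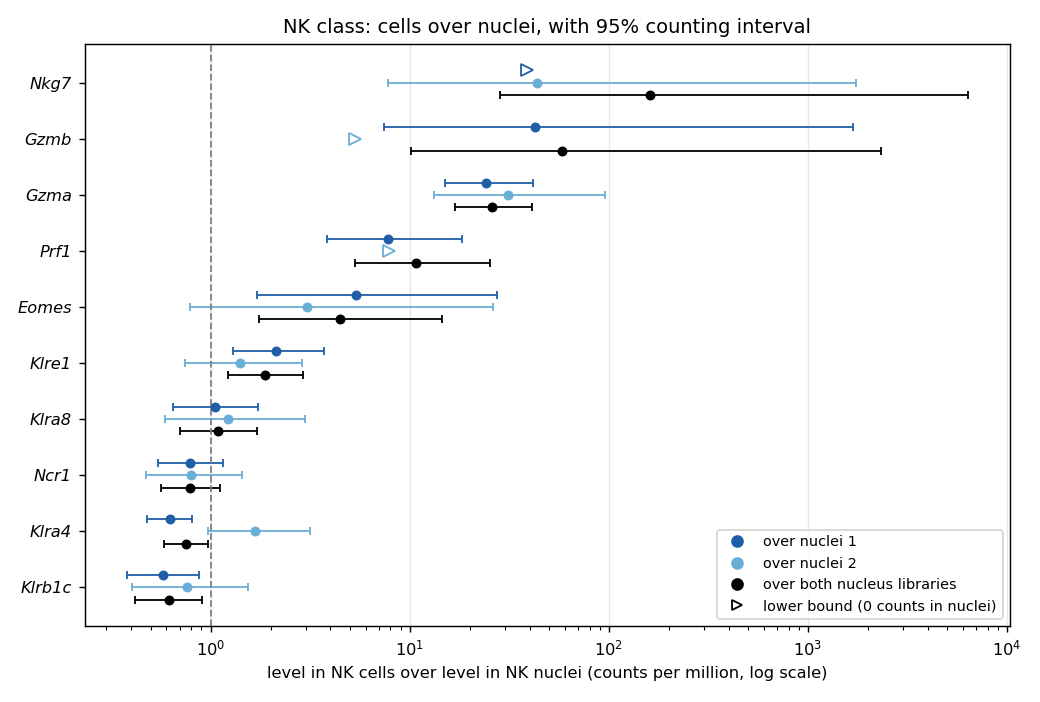
Level of each gene in NK-like cells over its level in NK-like nuclei (horizontal log axis, ratio of CPM) against nuclei replicate 1, nuclei replicate 2 and both together, with 95% counting intervals, and with triangles for lower bounds where nuclei had 0 counts. Nkg7, Gzmb, Gzma and Prf1 lie far right of 1, while Klra8, Ncr1, Klra4 and Klrb1c lie near or left of it, from 1.09 to 0.615 over both libraries.

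Barcode by barcode, Gzma, Nkg7 and Prf1 were found in more NK-like cells than any receptor was. Before thinning, 95% of NK-like cells had a Gzma UMI, 85.8% an Nkg7 UMI and 64.2% a Prf1 UMI, with at most 34, 7 and 7 UMIs in a cell. The receptors were found in 30.0% (Klra8) to 59.2% (Klra4) of NK-like cells, and Eomes in 24.2%. A median of 5 of the 10 members was detected per NK-like cell, against 3 and 1 per NK-like nucleus. Median depths were 2441.5 UMIs in these cells and 2424 and 1293 UMIs in these nuclei, so replicate 1 can be set beside the cells at nearly the same depth.

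Thinning every barcode at random to 1000 UMIs put the libraries on one depth and left out 2 of the 35 NK-like nuclei of replicate 2. At that depth Gzma was detected in 86.7% of NK-like cells (79.3 to 92.2%), against 11.8% and 9.09% of NK-like nuclei and 7.18% of the other cells. Nkg7 was detected in 57.5% of NK-like cells and in 3.98% of the other cells, and in 0 of 51 and 0 of 33 NK-like nuclei. Ncr1 was detected in 23.3% of NK-like cells and in 35.3% and 21.2% of NK-like nuclei, with intervals that overlapped. In other nuclei Ncr1 was in 0.0622% and 0.167%, and in other cells in 0.607%. Klra4 was in 38.3% of NK-like cells and 25.5% and 21.2% of NK-like nuclei, while Eomes was in 10.0% of NK-like cells and 0% and 3.03% of NK-like nuclei.

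Within the NK-like class the counts of some members were spread unevenly over barcodes. The variance over the mean, which is near 1 for counts that vary only by sampling, was 4.32 for Gzma in NK-like cells and 2.11, 2.02 and 1.78 for Gzmb, Klra8 and Klra4. In NK-like nuclei of replicate 1 it was 3.63 for Klra4 and 3.46 for Klra8. The Ly49 genes are known for being switched on in some NK cells and not in others. Klra4 and Klra8 were found together in 24 of 120 NK-like cells, against 21.3 given by the product of their shares. In NK-like nuclei they were together in 9 of 51 in replicate 1 against 5.61 so given, and in 2 of 35 in replicate 2 against 1.43. Differences in depth between barcodes were not taken out of these values.

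T-like cells had more of 8 members than the pooled background did, led by Eomes and Nkg7. Within that background, B-like cells were higher than T-like cells for Gzma, Gzmb, Prf1 and Ncr1. Of the 539 T-like cells, 56 with at least 5 member UMIs held 47.9% of the member counts. The class stood at 738 CPM with them and 436 CPM without them, beside 208 and 150 CPM in the background cut alike. The cut uses these same counts, so levels without such barcodes must fall. These 56 averaged 5.84 UMIs of the NK markers, against 2.68 in T-like cells with under 2 member UMIs, and their part in the levels was not tested. Beside the background of all other named classes, Eomes was at 81.9 CPM in T-like cells and 11 CPM in the other cells, a ratio of 7.44. Nkg7 was at 277 CPM in T-like cells and 43.7 CPM in the others, a ratio of 6.35. Klre1 (49.4 and 11.7 CPM) and Klra4 (43.5 and 13.6 CPM) were 4.23 and 3.21 times as high in T-like cells as in the others. Gzma, at 207 CPM in T-like cells and 89.1 CPM in the others, stood only 2.33 times above background, and Prf1, Ncr1 and Gzmb stood 2.16, 2.36 and 2.56 times above it. B-like cells had 233 CPM of Gzma. They had 38.3, 18.8 and 19.5 CPM of Prf1, Ncr1 and Gzmb, against 37.6, 14.8 and 15.5 CPM in T-like cells. Eomes, Nkg7, Klre1 and Klra4 were lower in B-like than in T-like cells, at 32.7, 125, 27.8 and 39.0 CPM. Klrb1c, at 5.16 and 5.14 CPM, and Klra8, at 5.16 and 3.78 CPM, had intervals that overlapped those of the background. In thinned barcodes Gzma was in 12.4% of T-like cells and in 12.1% of B-like cells, which are not known to make granzyme A, so its share in T-like cells was at the level of another class. Klra4 was likewise in 3.71% of T-like cells and 3.26% of B-like cells. Nkg7 was in 21.7% of T-like cells and 9.20% of B-like cells, and Eomes in 6.68% and 2.30%. Classes were clustered from these same cells, so no class was tested against another.

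The T-like cells formed 6 sub-clusters, called T1 to T6 here, which differed in these genes. T4, of 118 cells led by Ccl5 and with Cd8a, Ifng and Gzmk among its leading genes, had the highest Gzma, Nkg7 and Gzmb of the 6, with 405 CPM of Gzma (336 to 483), above the 233 CPM of B-like cells, 471 CPM of Nkg7 and 39.8 CPM of Gzmb. T2, of 92 cells with Klrc3, Klrc1 and Klrc2 among its leading genes, had 358 CPM of Nkg7 and the highest Klre1, at 97.1 CPM (60.9 to 147), with 124 CPM of Gzma. Both had 106 CPM of Eomes, close to the 122 CPM of NK-like cells and within its interval (86.5 to 166). T3, of 129 cells led by Dapl1 with Lef1, a gene of naive T cells, and T5, of 92 cells led by Tnfsf8 with 222 CPM of Cd4, were lower, at 113 and 119 CPM of Gzma and 137 and 161 CPM of Nkg7. T6, of 72 cells led by Il23r, had 241 CPM of Gzma and 36.7 CPM of Ncr1 (14.8 to 75.6), and T1, of 36 cells, had 235 CPM of Gzma and 363 CPM of Nkg7. Klrb1c had 0 to 3 counts in each of the 6.

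**Figure D2:**
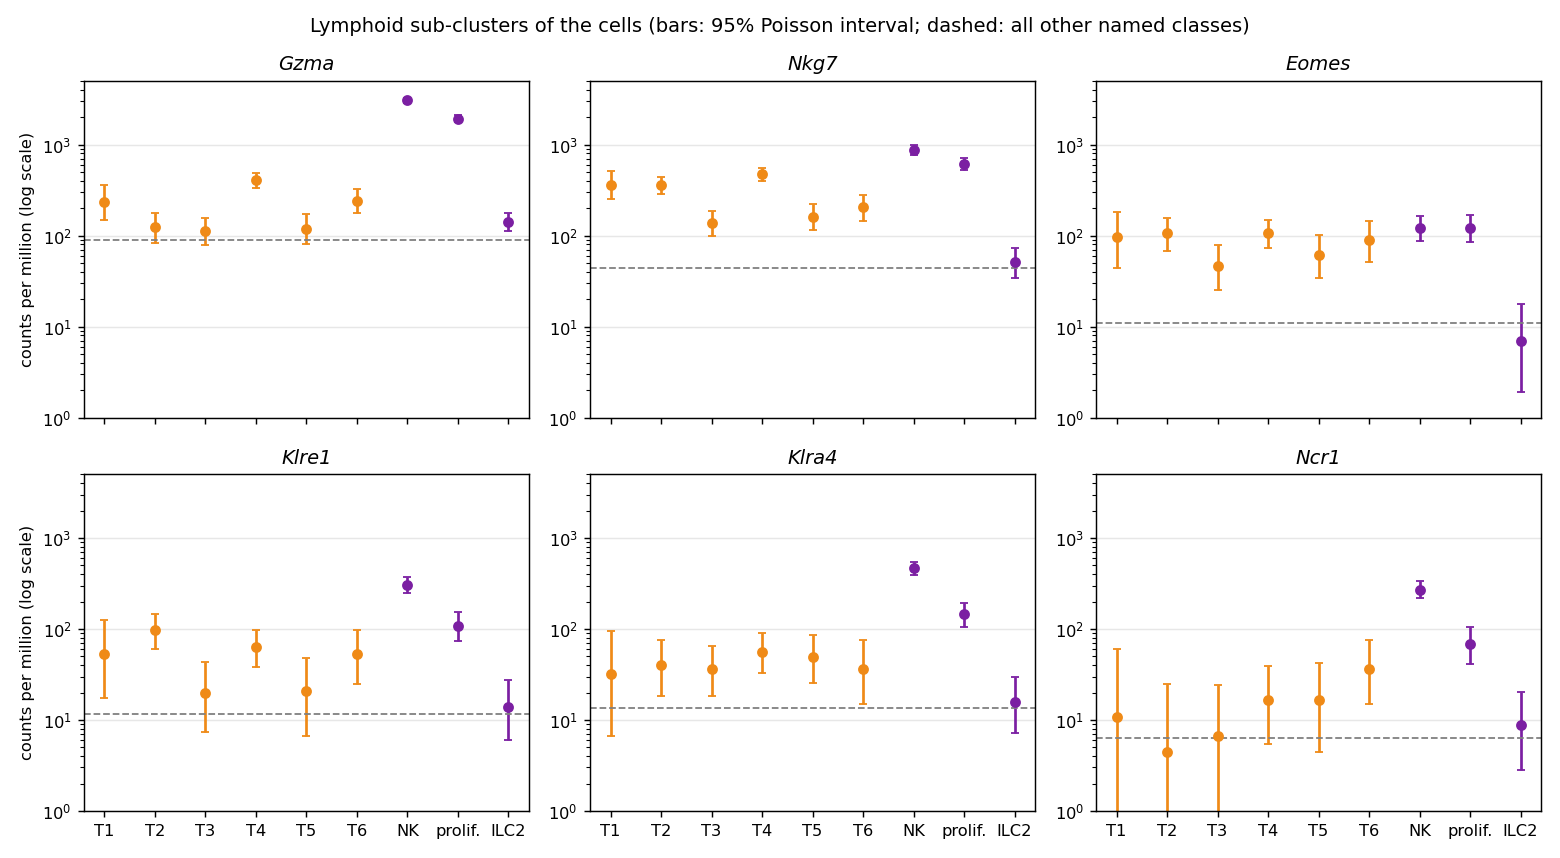
Level (CPM, vertical log axis) of 6 genes in the sub-clusters T1 to T6 and in the NK-like, proliferating (prolif.) and ILC2-like cells, with 95% Poisson intervals and a dashed line at the level of all other named classes. Nkg7 and Eomes lie above the dashed line in every T sub-cluster, and Ncr1 of T2 and T3 lies at it.

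The 85 proliferating lymphoid cells, led by histone and mitosis genes, held Gzma, Nkg7 and Eomes nearer to their NK-like levels than the receptors. They had 1930 CPM of Gzma and 618 CPM of Nkg7, against 3086 and 873 CPM in NK-like cells. Eomes, at 121 CPM, was at the level of NK-like cells. Prf1, at 108 CPM against 468 CPM in NK-like cells, was further from it. Klra8, at 13.5 CPM (4 counts), had an interval that overlapped the background, and Ncr1 and Klrb1c stood at 67.5 and 43.9 CPM. Cd3e was at 202 CPM in these cells and at 56.1 CPM in NK-like cells, and the class was named for neither type. Nuclei formed no such class.

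ILC2-like cells differed little from the background. Gzma was at 142 CPM in them (112 to 176) and at 89.1 CPM in the other classes, 1.59 times as high, and their summed 275 CPM was 1.32 times the background sum. Of the 195 cells, 7 with at least 5 member UMIs held 47.1% of the member counts. Without such barcodes, picked by these same counts, the sum was 151 CPM, beside 150 CPM in the other classes cut alike. The intervals of the remaining 9 members overlapped those of the background, as for Nkg7 at 50.7 and 43.7 CPM and Ncr1 at 8.74 and 6.26 CPM. In nuclei this class held 6 counts of the members in replicate 1 and 0 in replicate 2. The T and endothelial markers summed to 4110 and 3839 CPM in ILC2-like cells, against 6997 and 1473 CPM in T-like cells. In ILC2-like nuclei the T markers summed to 2468 and 1877 CPM. The part of these markers in the results was not tested.

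**Figure D3:**
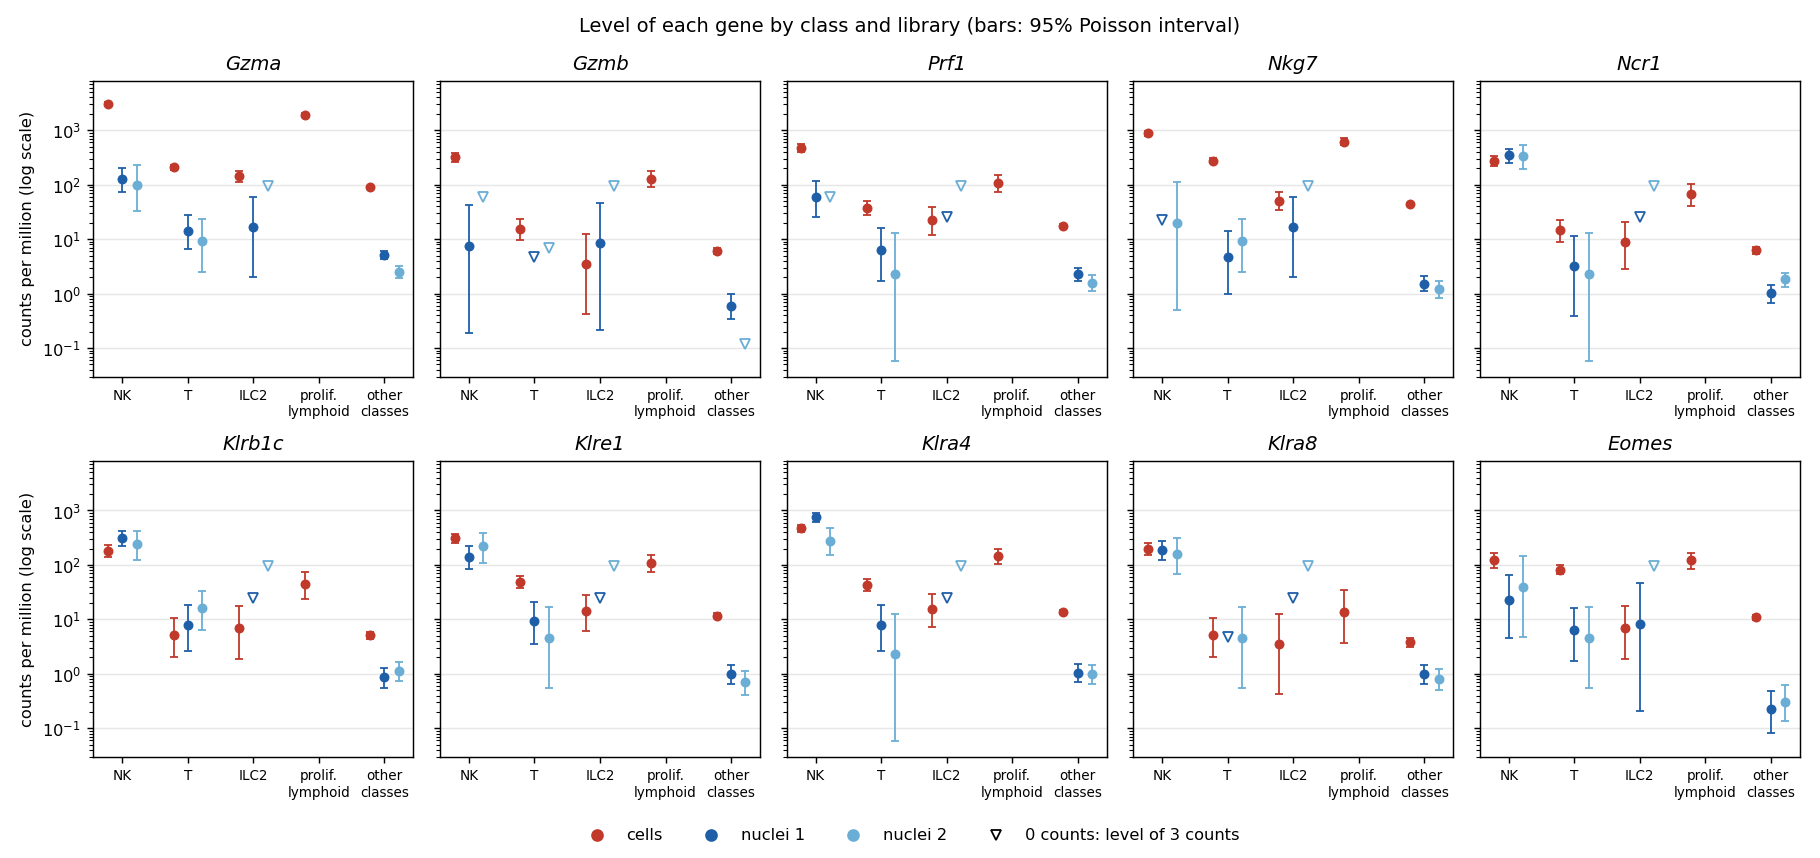
Level of each gene (CPM, vertical log axis) in the NK-like, T-like, ILC2-like and proliferating lymphoid classes and in all other named classes, in cells, nuclei 1 and nuclei 2, with 95% Poisson intervals. Open triangles stand at the level of 3 counts where a class had 0 counts, and nuclei had no proliferating class. Ncr1 and Klra8 of NK-like nuclei lie beside those of NK-like cells, and Klrb1c of NK-like nuclei lies above that of NK-like cells. In all other named classes the cells lie above both nucleus libraries for all 10 genes.

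Much of what was counted of these genes lay outside the NK-like, T-like, ILC2-like and proliferating classes. Of 11284 member counts in the cell library, 17.9% (17.2 to 18.6%) were in NK-like cells, 8.86% in T-like cells, 8.62% in proliferating lymphoid cells and 60.9% in all other named classes. NK-like cells were 1.01% of the barcodes. Of 728 and 390 member counts in the nucleus libraries, 35.9% and 17.9% were in NK-like nuclei and 53.8% and 73.1% in the other classes. The share in NK-like cells ran from 30.7% for Klra8 and 27.5% for Gzmb to 11.8% for Nkg7 and 6.79% for Eomes. For Eomes, T-like cells held more, at 19.3% (16.2 to 22.8%). Nuclei replicate 1 kept 70.4% of its Klra4 and 47.2% of its Klra8 in NK-like nuclei, against 32.6% and 25% in replicate 2.

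**Figure D4:**
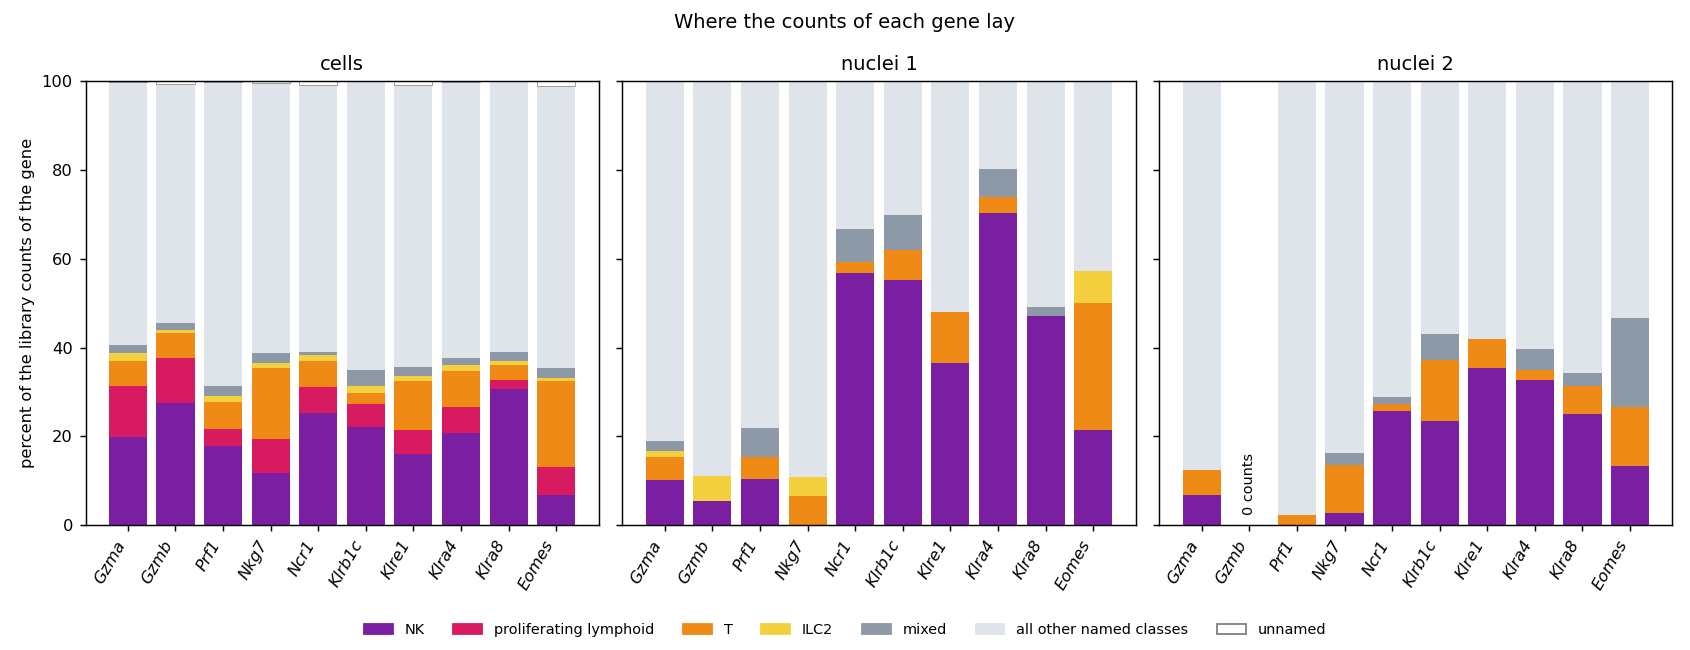
Percent of each gene's counts that lay in the NK-like, proliferating lymphoid, T-like, ILC2-like, mixed, other named and unnamed barcodes, one bar per gene, in cells, nuclei 1 and nuclei 2. The pale part, all other named classes, takes more than any lymphoid class for every gene in cells, while NK-like nuclei of replicate 1 hold 70.4% of Klra4. Gzmb had 0 counts in nuclei 2.

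The background differed between preparations and between classes. All other named classes of cells had 208 CPM of the 10 members together, against 14.6 and 11.1 CPM in nuclei, 14.2 and 18.8 times as high. NK-like cells stood 11 (Eomes) to 52.6 (Gzmb) times above this background. In nuclei the receptors stood 141 (Klre1) to 717 (Klra4) times above it in replicate 1 and 185 (Ncr1) to 313 (Klre1) times in replicate 2. Free RNA from broken cells can add UMIs to any droplet, and its part was not tested here. Among the 13 non-lymphoid or B-lineage classes of at least 50 cells the summed level ran from 122 CPM in ciliated cells, over a median of 175, to 560 CPM in B-like cells. B-like cells were the highest of the 13 for each of the 10 members, with Gzma at 233 CPM and Nkg7 at 125 CPM. In nuclei, B-like barcodes had 14.5 and 17.3 CPM of the members in sum, on 5 and 9 counts, beside 14.6 and 11.1 CPM in all other named classes. They were the highest of 12 classes in replicate 2, where the median was 11.8 CPM, and not in replicate 1, where dendritic barcodes were highest at 26 CPM.

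Few barcodes carried a large part of the background in cells. Of the 10872 other cells, 191 (1.76%) held at least 5 member UMIs each, and together they held 29.4% of the background's member counts. They averaged 6.54 UMIs of the NK markers, against 0.583 in other cells with under 2 member UMIs. Without them the background fell to 150 CPM, against 208 CPM with them. In the B-like class 42 of 522 cells held 64.6% of the member counts, and without them its level was 218 CPM. No nucleus of the other named classes held 5 or more. Called doublets had been removed from nuclei (85 and 178) and kept in cells. Even among NK-like barcodes, 22 of 51 and 8 of 35 nuclei held 5 or more, against 111 of 120 cells. This cut therefore does not treat cells and nuclei alike. It also picks barcodes by the member counts themselves, so levels without them must fall. Whether the 191 other cells were 2 cells in 1 droplet was not tested. The doublet caller marked 11 of the 11934 cells.

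In nuclei the mix of members differed between NK-like barcodes and the background. Gzma made up 6.51% and 7.14% of the member counts in NK-like nuclei (replicates 1 and 2), against 34.7% and 22.5% of those in the other classes. Nkg7 made up 0% and 1.43% in NK-like nuclei, against 10.5% and 10.9% in the others, and Prf1 made up 3.07% and 0%, against 15.6% and 14.4%. In cells Gzma made up 49.1% of the member counts of NK-like cells and 42.9% of those of the other classes. Nkg7 made up 13.9% and 21% there, and Eomes 1.93% and 5.30%, with intervals that did not overlap for any of these 3. For Eomes in nuclei the shares were 1.15% in NK-like and 1.53% in other nuclei of replicate 1, and 2.86% and 2.81% in those of replicate 2. In alveolar macrophages, the largest immune class of cells, Gzma was 43.7% of member counts.

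Among 28 cells of the basophil or mast class, 12 counts of Gzmb lay in 1 barcode and none in the others. This barcode, picked after its values were seen, had 4406 UMIs with 13 of Cpa3, 26 of Hdc and 4 of Gata2, genes of basophils and mast cells, and 1 UMI each of Gzma and Nkg7. Of the other basophil or mast markers it held 1 UMI of Il4 and 0 of Ms4a2, Fcer1a, Cd200r3, Mcpt4 and Cma2. Of the 14 NK markers it held 1 UMI, of Cma1.

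Of 13719 genes with at least 100 counts in the cell library, the members ranked 1 (Klra8), 2 (Gzmb), 3 (Ncr1), 5 (Klrb1c), 7 (Klra4), 8 (Gzma), 15 (Prf1), 17 (Klre1), 28 (Nkg7) and 58 (Eomes) by the share of their counts in NK-like cells. The 10 other genes with the highest shares were Cma1 (22.6%), Klra7 (22.2%), Klrg1 (19.7%), Klri2 (19.4%), Styk1 (18.6%), Klra9 (18.1%), Adamts14 (18.1%), Klra1 (17.8%), Gm30275 (16.4%) and Clnk (15.7%). Cma1, Klrg1, Klri2 and Styk1 were among the markers that named the class, and genes other than the members were open to the clustering.

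Cells were then tested against nuclei over whole libraries, in which fewer cells of a type and less RNA per cell cannot be told apart. Nkg7 had 2378 counts (66.1 CPM) in cells, against 46 and 37 counts (1.66 and 1.40 CPM) in nuclei, and rose by 5.59 ± 0.36 on the log2 scale (SE, edgeR quasi-likelihood adjusted p = 0.00336). Gzma had 4975 counts in cells against 168 and 73 in nuclei, and rose by 5.11 ± 0.54 (adjusted p = 0.00544 by edgeR). Eomes had 574 counts in cells against 14 and 15 in nuclei, and rose by 5.05 ± 0.47 (adjusted p = 0.00539 by edgeR). For each of these 3 the cells lay far above both nucleus libraries, which lay close together for Nkg7 and Eomes.

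The remaining granule genes followed. Gzmb had 371 counts in cells against 18 and 0 in nuclei (log2 fold 5.08 ± 1.28, edgeR adjusted p = 0.0373). Prf1 had 845 counts in cells against 78 and 42 in nuclei (3.56 ± 0.50, edgeR adjusted p = 0.00803). Among the receptors Klre1 rose most, with 608 counts in cells against 52 and 31 in nuclei (3.62 ± 0.50, edgeR adjusted p = 0.00789). Klra4 had 723 counts against 142 and 43 (2.70 ± 0.70, edgeR adjusted p = 0.0395) and Ncr1 344 against 81 and 66 (1.98 ± 0.47, edgeR adjusted p = 0.0312). Klrb1c, with 261 counts in cells against 76 and 51 in nuclei (1.79 ± 0.53, edgeR adjusted p = 0.0565), and Klra8, with 205 against 53 and 32 (2.02 ± 0.58, edgeR adjusted p = 0.0532), did not pass.

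Thus 8 of 10 members were higher in cells, where 16.2% of the 19782 genes tested were, and none was lower, where 8.05% were. The members' median log2 fold was 3.59, against -0.02 over all genes. None of the 10 was lower at an unadjusted p under 0.05 or by DESeq2 either. The spread came from the 2 nucleus libraries alone, with a coefficient of variation of 33.2%, and the single cell library was taken to have the same spread. That spread holds differences of sex, animal and technique together, and the p-values measure no more than it. The DESeq2 test did not pass Gzmb (adjusted p = 0.424), and edgeR's version 4 method did not pass Klra4 (adjusted p = 0.0534). With a nucleus library left out, the fold was a plain difference of mean log2 CPM, with no test, and not the edgeR estimate. It was 5.85 for Gzma (without replicate 1), 7.44 and 3.94 for Gzmb and 3.81 and 2.03 for Klra4 (without replicates 1 and 2). Eomes, at 5.05 in the full fit, was at 4.89 in both cases. The parts of the dropped library and of the change of estimate in these shifts were not told apart. With no filter on low counts edgeR passed Klrb1c and Klra8 too (adjusted p = 0.0372 and 0.0339).

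Within the NK-like, T-like and ILC2-like barcodes as 1 set, the granule genes and Eomes were far higher in cells and the receptors, apart from Klre1, did not pass. This set was 854 cells, of them 120 NK-like, against 311 and 356 nuclei, of them 51 and 35 NK-like. Nkg7 had 685 counts (305 CPM) in cells against 5 and 5 counts (5.67 and 9.67 CPM) in nuclei, a log2 fold of 5.72 ± 0.53 (edgeR adjusted p = 2.46e-24). Gzmb (125 counts against 2 and 0) rose by 5.53 ± 0.75, Gzma (1352 against 28 and 9) by 4.90 ± 0.48, Prf1 (214 against 12 and 1) by 3.74 ± 0.50 and Eomes (154 against 8 and 4) by 3.34 ± 0.52, with edgeR adjusted p-values from 3.85e-21 for Gzma to 6.55e-09 for Eomes. Klre1 had 77.0 CPM in cells against 28.3 and 25.1 CPM in nuclei and rose by 1.86 ± 0.45 (edgeR adjusted p = 0.000398). The cells lay above both nucleus libraries for each of these 6. Plain differences of log2 CPM, with no test, were 5.07 for Nkg7 and 5.04 for Prf1 without replicate 1. Without replicate 2 they were 4.18 for Gzmb and 2.92 for Prf1.

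For the other 4 receptors no difference passed. Ncr1 had 49.8 CPM in cells, between the 54.4 and 34.8 CPM of nuclei (log2 fold 0.48 ± 0.44, edgeR adjusted p = 0.483). Klra4 had 97.0 CPM, between 119 and 29.0 CPM (0.66 ± 0.42, edgeR adjusted p = 0.268). Klra8 had 32.0 CPM in cells against 28.3 and 19.3 CPM (0.74 ± 0.51, edgeR adjusted p = 0.319), and Klrb1c 30.7 CPM against 53.3 and 36.7 CPM (-0.23 ± 0.46, edgeR adjusted p = 0.776). Without nuclei replicate 2 the plain difference of log2 CPM was -0.06 for Klra4 and -0.54 for Klrb1c. Without replicate 1 it was 2.00 and 0.06, values with no test. A p that misses the threshold does not show equal levels. In this set 6 of 10 members were higher, where 13.7% of 11181 genes were, and 0 were lower, where 7.69% were, with 0 of 10 lower also at an unadjusted p under 0.05 in edgeR and by DESeq2. The count filter kept a gene that reached a set level in any 1 library, which Gzmb, Nkg7 and Eomes did in cells alone. With no filter on low counts, 6 of 10 members were higher, as were 1567 of 19157 genes. In the main fit the median log2 fold of the members was 2.60 and that of all genes -0.01. In this fit all genes shared 1 estimate of spread (coefficient of variation 26.0%). DESeq2 did not pass Klre1 (adjusted p = 0.144).

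In T-like barcodes alone, 7 members had enough counts to be tested and 6 were higher in cells, where 12.5% of 10042 genes were, and none was lower, where 6.74% were. These 6 reached the count filter in the cells only, and Klrb1c in nuclei replicate 2 only, so the filter itself shaped this count. With no filter on low counts, 7 of 10 members were higher, as were 1262 of 18356 genes. Nkg7 had 277 CPM in T-like cells against 4.77 and 9.19 CPM in T-like nuclei (log2 fold 5.74 ± 0.56, edgeR adjusted p = 1.34e-21). Gzma had 207 CPM against 14.3 and 9.19 CPM (4.47 ± 0.51, edgeR adjusted p = 9.99e-16), and Eomes 81.9 CPM against 6.36 and 4.59 CPM (4.21 ± 0.60, edgeR adjusted p = 1.14e-10). Prf1, Klra4 and Klre1 rose by 3.36, 3.32 and 3.09 in edgeR, with 51, 59 and 67 counts in cells against 4 and 1, 5 and 1, and 6 and 2 in nuclei. DESeq2 did not pass Klra4 (adjusted p = 0.151) or Klre1 (adjusted p = 0.136). It passed 3 members in all and gave no adjusted p for 5. Klrb1c, at 5.16 CPM in cells against 7.95 and 16.1 CPM in nuclei, was -0.76 ± 1.55 (edgeR adjusted p = 0.785). Gzmb (21 counts in cells, 0 and 0 in nuclei), Ncr1 (20, 2 and 1) and Klra8 (7, 0 and 2) were below the count filter. None was lower at an unadjusted p under 0.05 or by DESeq2. As in the 3 lymphoid classes together, all genes shared 1 estimate of spread in this fit (coefficient of variation 26.7%). It came from the 2 nucleus libraries alone, and the small p-values rest on it. The plain difference of log2 CPM without nuclei replicate 1 was 4.91 for Nkg7. Without replicate 2 it was 3.54 for Eomes, 2.46 for Prf1, 2.41 for Klra4 and 2.38 for Klre1, with no test. For Eomes it was 3.88 without replicate 1, so both values lay below the 4.21 of the full edgeR fit. The background moved with these folds. Over both nucleus libraries Gzma was 17 times as high in T-like cells and 23.4 times as high in the other classes of cells. Nkg7 was 42.2 and 31.9 times, and Eomes 14.5 and 41.3 times, as high in T-like cells and in the other classes. The parts of the background, and of the 56 T-like cells with 5 or more member UMIs, in the T-like folds were not tested.

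**Figure D5:**
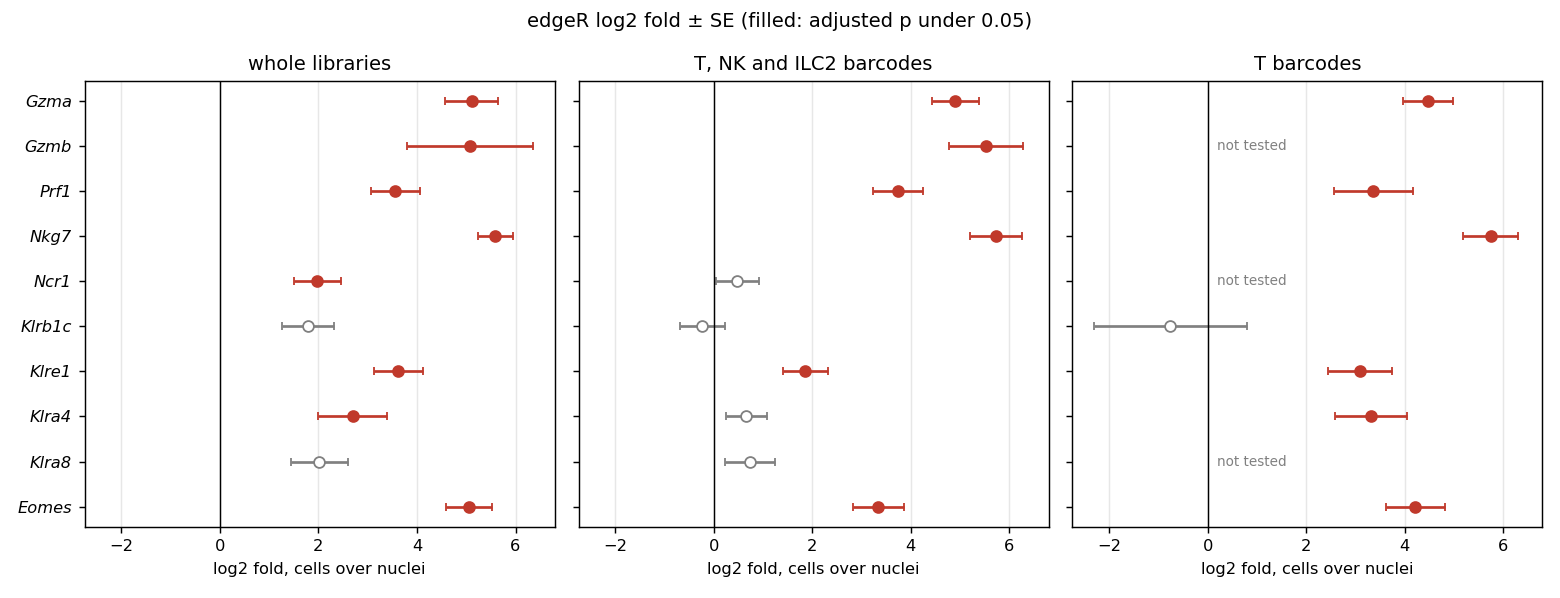
Log2 fold of cells over nuclei with its SE from edgeR (horizontal axis) for each gene, over whole libraries, over NK-like, T-like and ILC2-like barcodes together, and over T-like barcodes. Filled points passed an adjusted p of 0.05. Gzma, Prf1, Nkg7, Klre1 and Eomes are filled in all 3 panels, and Klrb1c in none.

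Other genes of the pathway were taken from a list of 79, of which 77 were in both tables. This list too was chosen with earlier results of these data known. Over whole libraries 49 of them were higher in cells and 1, Il15ra, was lower, where 16.2% and 8.05% of all genes tested were. The list's median log2 fold was 2.48, against -0.02 over all genes. The largest rises were in secreted factors and signalling adaptors. Ccl3, a chemokine, had 1430 counts in cells against 6 and 3 in nuclei (log2 fold 8.03 ± 0.51, edgeR adjusted p = 0.00336). It was followed by Ccl4 (7.25), Ifng (6.36), the adaptor Tyrobp (5.86), Ccl5 (5.78), Tnf (5.27), the adaptor Fcer1g (5.15) and Klra6 (5.15). Tyrobp couples Ly49D and Ly49H, and Fcer1g couples NKp46, to signalling, but both adaptors are also made by myeloid cells. Most cell counts lay in all other named classes for Ccl3 (1333 of 1430), Ccl4 (1557 of 1801), Tnf (929 of 1017), Ccl5 (9677 of 16181) and Ifng (270 of 445). These folds are thus not those of lymphoid barcodes alone. Il15ra, part of the receptor for a cytokine that NK cells need, had 8.87 CPM in cells against 36.0 and 25.7 CPM in nuclei (-1.64 ± 0.42, edgeR adjusted p = 0.0395). Of its counts, 274 of 319 in cells and 973 of 997 in nuclei replicate 1 lay in all other named classes.

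By group over whole libraries, those higher were 6 of 13 genes of granule contents and release, 7 of 8 death ligands and cytokines, 8 of 17 other receptors of the NK gene complex, 13 of 15 other receptors and adaptors, 8 of 14 cytokine receptors and transcription factors, and 7 of 10 trafficking and adhesion genes. In the 3 lymphoid classes together 26 of 69 tested genes were higher and 2 lower, where 13.7% and 7.69% of all genes were, with a median of 0.86 against -0.01 over all genes. Those higher were 6 of 11, 6 of 7, 2 of 14, 5 of 13, 5 of 14 and 2 of 10 in the same order of groups. The 2 of 14 other NK complex receptors, Klrd1 (1.37) and Klra7 (1.20), are a share near that of all genes, while Klrk1, which encodes the receptor NKG2D, was at 109 CPM in cells against 175 and 106 CPM in nuclei. Ccl4 (6.97), Ccl3 (5.72), Ifng (5.55), Ccl5 (5.49), Tyrobp (3.69), the adaptor Hcst (3.55), the interleukin receptor chain Il2rb (3.43) and Fcer1g (3.35) rose most in log2 fold. Of these, Ccl4, Ccl3 and Ifng reached the count filter in the cells only. Rab27a, needed for granules to dock at the membrane, had a log2 fold of -1.73 (59.2 CPM in cells against 338 and 155 CPM in nuclei, edgeR adjusted p = 0.00287). Cd226, an activating receptor, had a log2 fold of -2.32, with 120 CPM in cells against 876 and 652 CPM in nuclei (edgeR adjusted p = 8.97e-05).

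In T-like barcodes 27 of 59 tested genes of the list were higher and 2, Cd226 (-2.44) and Rab27a (-1.55), were lower, where 12.5% and 6.74% of all genes were, with a median of 1.35 against -0.02 over all genes. The groups gave 7 of 11, 4 of 7, 4 of 6, 5 of 12, 5 of 14 and 2 of 9 higher. Ifng (6.37), Ccl4 (6.01), Ccl5 (5.57), Hcst (4.06), the death ligand Fasl (3.94), Gzmk (3.66), Il2rb (3.63) and Il12rb2 (3.53) rose most in log2 fold. Gzmk, a granzyme of memory CD8 T cells, had 47.2 CPM in T-like cells against 3.18 and 6.89 CPM in T-like nuclei. Ifng, Ccl4, Fasl and Gzmk reached the count filter of this set in the cells only. The 3 comparisons share libraries and barcodes and are not independent of each other.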

How the data were processed

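Counts are unique molecules per gene and barcode in 2 deposited tables, 1 of cells and 1 of nuclei. Per the submitters' processing notes, STAR 2.5.3a and mm10 were used to make the deposited counts. Which program counted, and how introns and strand were handled, is not given in the sources used here. The cell library had 35962788 counts, and the nucleus libraries had 28062109 and 27148272. This depth sets the 95% exact intervals (Poisson for levels, binomial for shares), which cover counting error only.

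A barcode was kept if it had 400 or more genes and a mitochondrial share below 20%. Scrublet doublets were removed from nuclei (85 and 178). The 11 called in cells, 0.0922% of barcodes, were kept under a rule that set the caller aside where it marked under 0.5%. Why so few were marked was not tested. No barcode had more than 2499 genes in cells, or more than 2499 and 2999 genes in nuclei replicates 1 and 2. Barcodes were clustered per table with scanpy 1.11.5 and leidenalg 0.10.2 (2000 variable genes, 30 components, 20 neighbours, resolution 1, then lymphoid barcodes again with 20 components), leaving out the 10 members. A cluster was named when at least 3 markers of a type were 2-fold higher and in at least 10% of its barcodes. It was called mixed when a share of at least 0.5 of the markers of an unrelated type did so too. These names are rebuilt here. For detection, barcodes were thinned to 1000 UMIs.

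Sums per library were tested with edgeR 4.0.16 in R 4.3.3 (TMM scaling, filterByExpr, quasi-likelihood as before version 4, Benjamini-Hochberg over all genes, threshold 0.05) where each library had at least 50 barcodes. Alternatives were DESeq2 1.42.0, DESeq2 size factors, no filter, all barcodes, other clusterings, thinning to 500 UMIs and leaving out a nucleus library. The last gave plain differences of mean log2 CPM in place of edgeR estimates. Chosen after seeing the data were edgeR's version 4 method, adding the proliferating cells, and leaving out barcodes with 5 or more member UMIs. The tests were tried first on simulated counts.

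The members and all lists were chosen with earlier results of these data known. Named were all 10 members, up to 8 pathway genes per direction and comparison by size of change among those past the test, and the 10 other genes, of those with at least 100 counts in cells, with the highest share of counts in NK-like cells.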

Additional observations from a re-analysis of the deposited data

Results flagged for a closer look

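For Ncr1 the cells lay below both nucleus libraries in NK-like barcodes (271 CPM, against 345 and 338 CPM) and above both in T-like barcodes (14.8 CPM, against 3.18 and 2.30 CPM) and in all other named classes (6.26 CPM, against 1.01 and 1.83 CPM). The difference between classes was not tested.

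For Klrb1c the cells lay below both nucleus libraries in NK-like barcodes (181 CPM, against 315 and 239 CPM) and in T-like barcodes (5.16 CPM, against 7.95 and 16.1 CPM), and above both in all other named classes (5.14 CPM, against 0.859 and 1.13 CPM). This difference was not tested either, and the T-like values rest on 7 counts in cells and 5 and 7 in nuclei.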

How the results depend on the processing

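Over whole libraries the members' median log2 fold was positive under every alternative run, and from 3.16 to 4.04 when a nucleus library was left out, where no call can be made. All folds without a nucleus library are plain differences of log2 CPM, so the estimate changed along with the libraries. Of the members, 7 passed by DESeq2 and by edgeR's version 4 method and 10 with no filter, against 8. In the lymphoid set the median was 2.27 to 2.61 without 1 nucleus library. Klra4 was -0.06 without replicate 2 and 2.00 without replicate 1, and Klrb1c was -0.54 without replicate 2 and 0.06 without replicate 1. The cause was not tested. DESeq2 called 515 genes higher and 209 lower in the lymphoid set, against 1532 and 860, and 413 and 150 in T-like barcodes, against 1254 and 677. In T-like barcodes 3 members passed by DESeq2, against 6. The median was 3.36 over the 7 members of the main fit and 2.46 over 8 members at clustering resolution 2. It was 2.83 to 3.45 over 8 members without 1 nucleus library, so these medians do not cover the same members.

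Levels summed over the 10 members moved with the clustering. At resolution 2 NK-like, T-like and other cells had 4194, 639 and 167 CPM, and the other cells had 150 CPM without barcodes of 5 or more member UMIs. NK-like nuclei had 2349 and 1932 CPM and T-like nuclei 88.5 and 83.6 CPM at resolution 2. With the members among the clustering genes, NK-like nuclei had 2349 and 2007 CPM, and T-like nuclei of replicate 1 had 87.9 CPM. Shares of the cell library's member counts were 19.0% (NK-like), 9.94% (T-like) and 59.5% (others) with the members clustered, and 25%, 10.9% and 43.4% at resolution 2. The T-like share in nuclei replicate 1 was 7.97% under both. Thinned to 500 UMIs, a member was found in 89.2% of NK-like, 22.1% of T-like and 8.44% of other cells, in 49.0% and 40.0% of NK-like nuclei, and in 0.778% and 0.64% of other nuclei, since fewer UMIs are drawn.

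No paired analysis was possible because the cell library carries no replicate number and the groups share fewer than 2 numbers. No test was made without a nucleus library, since 2 libraries leave no spread to estimate. Depth limits the small classes of nuclei, where 0 counts allow 22.5 and 59.7 CPM in NK-like and 25 and 95.4 CPM in ILC2-like barcodes.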

Other observations

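The members differed in the length of their gene models, and those with the shortest and longest spans stood near opposite ends of the ratio of NK-like cells to NK-like nuclei. Nkg7 spans 1177 bases, of which 263 are intronic, and had a ratio of 160. Gzmb spans 3423 bases and had a ratio of 58.4. Klrb1c spans 10731 bases and Klra8 14673 bases, with ratios of 0.615 and 1.09, and Klra4, the longest at 23541 bases, had 0.753. Members of middle length did not order this way, with 25.8 for Gzma at 7157 bases, 0.790 for Ncr1 at 7441 bases and 1.87 for Klre1 at 7923 bases. These are values of 10 chosen genes and no test was made of the relation.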
